A study of Mus musculus with 6 samples.

Results

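The tetraspanins are described here in double-positive (DP) thymocytes, the T cell precursors that carry both CD4 and CD8, of wild-type (WT) and Hdac3 knockout (KO) mice. Members were the genes with a symbol starting with Tspan, together with Cd9, Cd37, Cd53, Cd63, Cd81, Cd82, Cd151, Upk1a and Upk1b. By this rule 28 of 19938 genes with a probe set of their own were members. The brightest probe set was to stand for each gene, but every member had a single probe set, so no member was in fact chosen by a measured value. The family was picked for description with the rise of Cd53 already known, so that rise is the starting point here and not independent evidence. A further member by symbol, Tspan7, was not analysed here.

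The samples were 6 Affymetrix whole-transcript arrays, 3 of WT and 3 of Hdac3 KO DP thymocytes, from untreated C57BL/6 mice aged 3 weeks. The knockout line is named LCK:Hdac3, and no further detail of the alleles, or of what the WT littermates or controls carried, is given in the sources used here. The design text describes RNA pooled from 2 mice of each genotype and counts 3 biological replicates. The sources do not tie mice to arrays, and a p-value here therefore reflects how far these 6 arrays scatter, which may be technical scatter. Values are log2 probe set values as deposited, with no stated level below which a probe set is undetected.

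The labels held up on the targeted gene and on the cell type. Hdac3 read 9.40, 9.42 and 9.44 in WT against 8.28, 8.32 and 8.32 in KO, arrays being given throughout in the order 1, 2, 3, with a difference of -1.12 (95% interval -1.30 to -0.93). The defining DP genes Cd4, Cd8a and Rag1 were bright on all 6 arrays, with mean log2 values of 11.23, 12.83 and 12.98 and differences between genotypes of -0.00, -0.04 and 0.07. Of 9 DP markers 1, Cd1d1, passed, with a difference of -0.65 (limma, adjusted p = 0.0204). Interquartile ranges of all values were smaller on the KO arrays, 3.06 to 3.25 against 3.29 to 3.49 in WT. The median difference of all probe sets ran from 0.16 in a bin of dim probe sets to -0.17 in a bin of bright ones. This background is given beside several of the members. KO array 2 stood apart in neutrophil genes. The summed signal of 13 neutrophil markers was 10.06 there on the log2 scale, against 8.22 to 8.43 on the other arrays.

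Tetraspanins are small membrane proteins that span the membrane several times and carry a large extracellular loop with conserved cysteines. They bind few ligands of their own. Instead they hold integrins, immunoglobulin superfamily proteins, proteases and signalling enzymes in membrane microdomains, and they guide the trafficking of these partners. In T cells CD9, CD37, CD53, CD81, CD82 and CD151 are known at the surface, where they associate with coreceptors and adhesion molecules, and CD63 marks late endosomes and secretory vesicles.

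The start regions of 3 members are shown because the results turn on them: Cd53 rose, Tspan2 fell most and Cd81 fell among the bright members. Each sequence is the 250 bases upstream of the annotated RefSeq start on the gene's own strand, 5′ to 3′, in mouse assembly GRCm38.p6. For Tspan2 it is the first of 2 annotated starts. For Cd53 it is chr3:106790150-106790399 on the minus strand, for Tspan2 chr3:102734520-102734769 on the plus strand and for Cd81 chr7:143052500-143052749 on the plus strand. Capitals mark matches, on either strand, to 7 motifs. These are the core bound by RUNX factors, with the letters TGTGGT, the core of ETS factors, with the letters GGAAGT, and the E-box of basic helix-loop-helix factors, with the letters CANNTG. The promoter elements searched were the GC box, with the letters GGGCGG, the TATA box, with the letters TATAAA, and the CCAAT box, which is its own name. A half-site of nuclear receptors, with the letters AGGTCA, was searched too. No printed match overlaps another.
Cd53: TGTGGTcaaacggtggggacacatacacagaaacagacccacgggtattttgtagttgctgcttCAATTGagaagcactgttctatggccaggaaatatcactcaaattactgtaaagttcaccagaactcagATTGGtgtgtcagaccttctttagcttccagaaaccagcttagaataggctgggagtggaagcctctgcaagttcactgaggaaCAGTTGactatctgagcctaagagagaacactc
Tspan2: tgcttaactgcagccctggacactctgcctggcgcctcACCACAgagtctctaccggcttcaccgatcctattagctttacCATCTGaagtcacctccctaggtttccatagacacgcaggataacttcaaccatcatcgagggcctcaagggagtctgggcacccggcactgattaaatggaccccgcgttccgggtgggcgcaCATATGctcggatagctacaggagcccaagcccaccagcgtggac
Cd81: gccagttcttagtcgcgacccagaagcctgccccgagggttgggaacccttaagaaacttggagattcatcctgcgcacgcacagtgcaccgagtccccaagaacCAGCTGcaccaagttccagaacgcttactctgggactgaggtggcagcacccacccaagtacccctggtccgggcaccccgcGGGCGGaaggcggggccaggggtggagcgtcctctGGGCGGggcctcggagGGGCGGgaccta

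These windows differ in their CpG content. The Cd53 window holds 2 CpG dinucleotides and is 45.2% G or C, the Tspan2 window 12 and 57.2%, and the Cd81 window 16 and 65.6%. Over 32851 such windows of all genes the median was 6 CpG, with quartiles of 2 and 16. RUNX letters occur once each in the Cd53 and Tspan2 windows, and in 14.0% of all windows. An E-box is in all 3 printed windows and in 66.2% of all windows, the GC box 3 times in the Cd81 window and in 32.7% of all, and CCAAT once in the Cd53 window and in 33.8% of all. The ETS, TATA and half-site letters, found in 19.7%, 12.4% and 14.0% of all windows, have no match in the printed ones. A match describes letters only.

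Of the 28 members, 1 was higher and 5 were lower in KO (limma, Benjamini-Hochberg adjusted p under 0.05), and 22 did not pass. Over all 23410 probe sets tested 5.79% passed, 1.75% higher and 4.04% lower. The share among members was 21.4%. The member that rose was Cd53, and those that fell were Tspan2, Tspan5, Cd63, Cd151 and Cd81. The median difference over the 28 members was -0.02, against 0.02 over all probe sets, while the median absolute difference was 0.26 against 0.15. Differences of the members were thus larger in size than those of a typical probe set, with 13 positive and 15 negative. Above the median signal, the median absolute difference was 0.32 for 15 members against 0.17 for all probe sets, and 33.3% against 9.06% passed. Of the 6 that passed only Cd53 rose, and its rise was known when the family was picked. Neither the share of members that passed nor the size of their differences is therefore independent evidence. WT and KO arrays did not overlap for 15 members, 6 with KO above and 9 with KO below. Over all probe sets the groups did not overlap for 30%, with KO above for 13.5% and below for 16.5%.

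**Figure D1:**
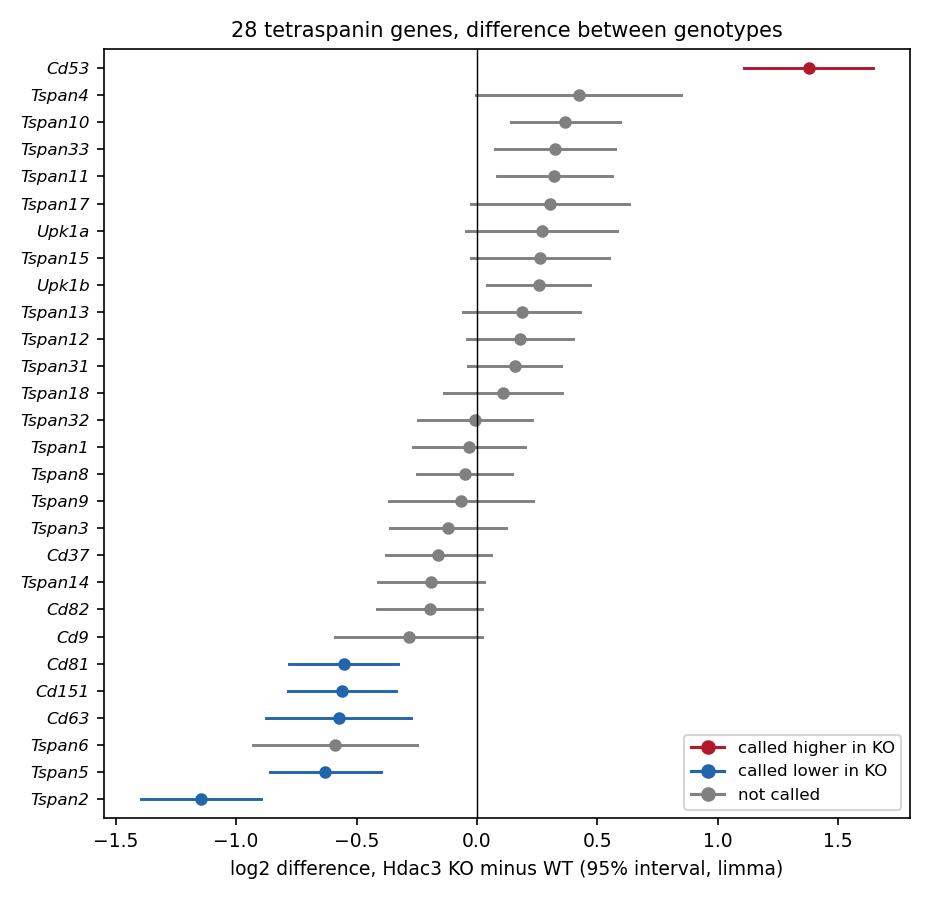
Log2 difference between Hdac3 KO and WT (x axis) for each of the 28 tetraspanin genes (y axis, in order of the difference), with the 95% interval of the limma fit over 3 WT and 3 KO arrays. Cd53 lies far to the right at 1.38 and Tspan2 far to the left at -1.15, while Cd81, Cd151, Cd63, Tspan6 and Tspan5 lie between -0.55 and -0.63.

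Among the tetraspanins of leukocytes, Cd53 rose, while Cd37, Tspan32 and Cd82 did not pass. CD53 is a pan-leukocyte tetraspanin that associates with CD2, CD45 and integrins. Its probe set (10501063) read 8.60, 8.58 and 8.28 in WT and 9.69, 9.95 and 9.94 in KO. Every KO array lay at least 1.10 above every WT array, where probe sets of like signal had a median difference of -0.13. The difference of 1.38 (SE 0.12, n = 3 arrays per group) is 2.60-fold, with a 95% interval of 216% to 313% of the WT signal (limma, adjusted p = 0.000636). Without KO array 2, the one with neutrophil signal, the difference was 1.33 (limma, adjusted p = 0.00368). RNA from bulk cells cannot tell more Cd53 RNA per cell from more cells that carry it, and the same holds for every difference given here.

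Cd37 encodes the tetraspanin of mature B and T cells that restrains T cell proliferation. It read 9.10, 8.94 and 8.96 in WT and 8.87, 8.73 and 8.93 in KO, a difference of -0.16 (95% interval -0.38 to 0.06; limma, adjusted p = 0.323). The groups stopped just short of overlapping, and the bin of probe sets of like signal had a median of -0.13. Tspan32, whose product also limits T cell proliferation, read 7.61, 7.46 and 7.27 in WT and 7.47, 7.41 and 7.43 in KO, with a difference of -0.01 (95% interval -0.24 to 0.23). The KO values of Tspan32 lay inside the WT range. Cd82, a metastasis suppressor that is also a costimulatory surface protein of T cells, read 9.44, 9.35 and 9.31 in WT and 9.09, 9.31 and 9.11 in KO. Its difference of -0.20 (95% interval -0.41 to 0.02; limma, adjusted p = 0.242) did not pass, and KO array 2 came within 0.01 of the lowest WT array.

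**Figure D2:**
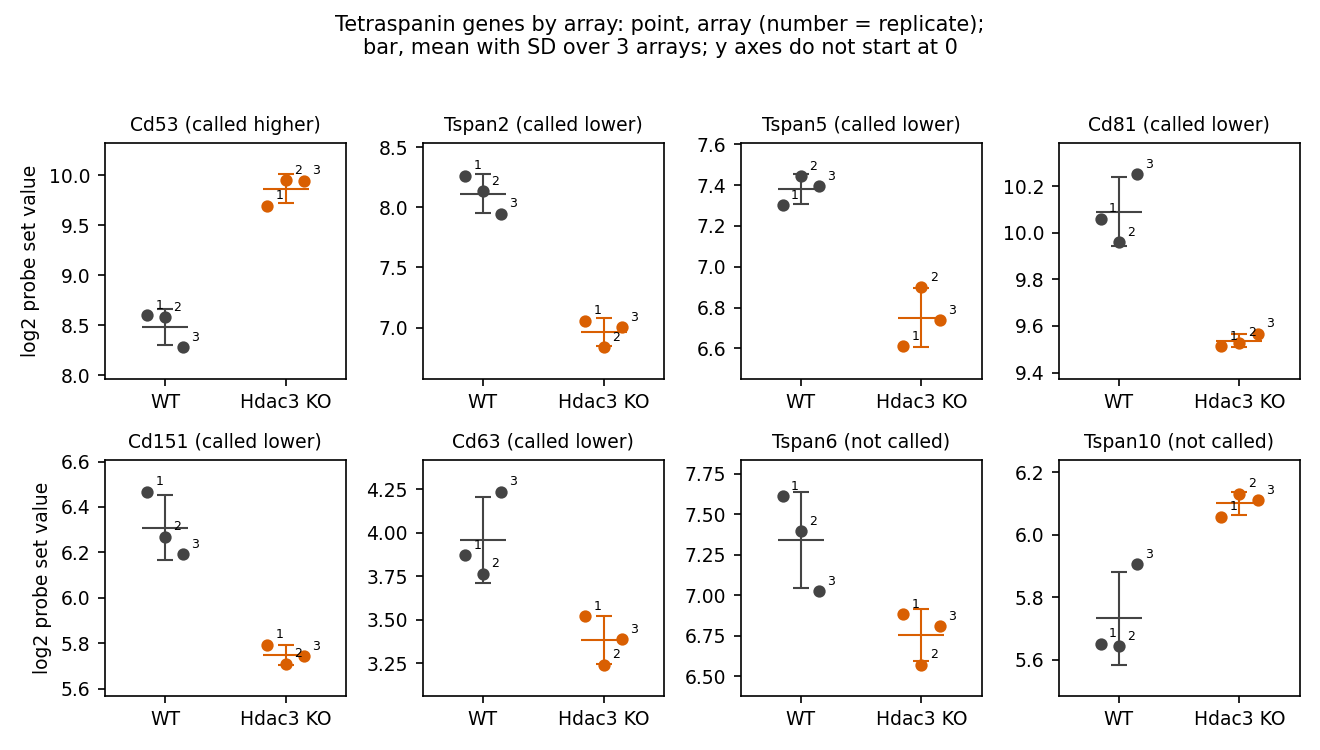
Log2 probe set value (y axis, not starting at 0) of 8 tetraspanin genes on each array, with WT in grey and Hdac3 KO in orange. Points are arrays with their replicate number, and bars give the mean with SD over 3 arrays. The genes shown are the 6 called members with Tspan6 and Tspan10, so they were picked by their differences. In none of the 8 panels do WT and KO arrays overlap, with gaps from 0.14 in Tspan6 to 1.10 in Cd53. The groups did not overlap for 15 of all 28 members and for 30% of all probe sets.

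Cd81, Cd151 and Cd63, expressed in many tissues, fell, and Cd9 did not pass. CD81 is a costimulator of T cells. Its probe set (10559261) read 10.06, 9.96 and 10.25 in WT and 9.51, 9.53 and 9.57 in KO, and the lowest WT array lay 0.39 above the highest KO array. Cd81 fell by 0.55 (SE 0.10, n = 3 arrays per group), to 68.1% of the WT signal (limma, adjusted p = 0.0155). The KO arrays had an SD of 0.03 and the WT arrays an SD of 0.15. The call was lost without KO array 2 (-0.55; limma, adjusted p = 0.0579) or KO array 3 (-0.57; limma, adjusted p = 0.0552), although the size hardly moved.

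CD151 is the tetraspanin that binds the laminin-binding integrins most tightly. Its probe set (10558948) read 6.47, 6.27 and 6.19 in WT and 5.79, 5.71 and 5.74 in KO. All KO arrays lay below all WT arrays, by 0.40 or more. Cd151 fell by 0.56 (SE 0.10), to 67.8% of the WT signal (95% interval 58.0% to 79.2%; limma, adjusted p = 0.0145). The call was lost without WT array 1 (-0.48; limma, adjusted p = 0.0503), KO array 2 (-0.54; limma, adjusted p = 0.0589) or KO array 3 (-0.56; limma, adjusted p = 0.0589).

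CD63 sits in late endosomes, lysosome-related granules and exosomes. Its probe set (10367436) was among the dim ones, at the 12.4th percentile of mean signal of all tested probe sets. It read 3.87, 3.77 and 4.24 in WT and 3.52, 3.24 and 3.39 in KO, and the groups did not overlap. The difference was -0.57 (SE 0.13; limma, adjusted p = 0.041), where the bin of like signal had a median of 0.08, so Cd63 went against the drift of dim probe sets. It was called in none of the 6 fits that left out 1 array, with limma adjusted p from 0.0514 to 0.135 and differences from -0.67 (WT array 2 left out) to -0.43 (WT array 3 left out). Cd9, which pairs with CD81 on many cells and is needed for sperm-egg fusion, was dim too, read 5.14, 5.34 and 5.49 in WT and 5.31, 4.89 and 4.92 in KO, and differed by -0.28 (95% interval -0.59 to 0.02; limma, adjusted p = 0.229). KO array 1 overlapped the WT arrays in Cd9.

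Tspan2 showed the largest fall of the family. TSPAN2 is best known from oligodendrocytes, neurons and vascular smooth muscle. Its probe set (10494821) read 8.26, 8.13 and 7.95 in WT and 7.06, 6.84 and 7.00 in KO. The gap between the groups was 0.89, larger than the range within either group. Probe sets of like signal had a median difference of -0.17. Tspan2 fell by 1.15 (SE 0.11), to 45.1% of the WT signal (95% interval 38.0% to 53.6%; limma, adjusted p = 0.00109). It was called in each of the 16 other settings, with differences from -1.25 after median centring to -0.98 after quantile normalization without KO array 2. The annotation places an antisense noncoding gene, Tspan2os, across the start of Tspan2, and that transcript was not analysed here.

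The TspanC8 subgroup, named for the cysteines of its extracellular loop, escorts the protease ADAM10 to the cell surface, where ADAM10 cleaves Notch and many adhesion proteins. Of its 6 members Tspan5 fell and 5 did not pass, where 4.04% of all probe sets were called lower and 5.79% in either direction. The Tspan5 probe set (10496494) read 7.30, 7.44 and 7.39 in WT and 6.61, 6.90 and 6.74 in KO, with a gap of 0.40 between the groups. Probe sets of like signal had a median difference of -0.14. Tspan5 fell by 0.63 (SE 0.10), to 64.6% of the WT signal (limma, adjusted p = 0.00971). Its call held in all 16 other settings, including each fit without 1 array (-0.71 to -0.56; limma, adjusted p up to 0.045).

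Tspan14, the other TspanC8 member with signal well above the median, read 8.09, 7.97 and 7.86 in WT and 7.85, 7.70 and 7.79 in KO. The groups were 0.01 apart, and the difference of -0.19 (95% interval -0.41 to 0.03) was close to the median of -0.17 of its signal bin. Tspan10 read 5.65, 5.64 and 5.91 in WT and 6.06, 6.13 and 6.11 in KO. Its KO arrays were all above its WT arrays, with a difference of 0.37 (SE 0.10) that did not pass (limma, adjusted p = 0.0647). It passed with dim probe sets left out (limma, adjusted p = 0.035), with array weights (limma, adjusted p = 0.0281) and without WT array 3 (0.45; limma, adjusted p = 0.0283). The remaining members Tspan33, Tspan17 and Tspan15 were dim, with mean log2 values of 4.78, 5.01 and 5.01 and differences of 0.32, 0.30 and 0.26, where probe sets of like signal had a median of 0.15. Adam10 itself read 9.56, 9.50 and 9.52 in WT and 9.30, 9.30 and 9.33 in KO, a difference of -0.22 (95% interval -0.41 to -0.03; limma, adjusted p = 0.149), and its substrate Notch1 differed by -0.08 (95% interval -0.35 to 0.19).

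Tspan6 lay just outside the threshold. TSPAN6 is known as a negative regulator of antiviral signalling through MAVS. Its probe set read 7.61, 7.40 and 7.02 in WT and 6.88, 6.57 and 6.81 in KO. The WT arrays were spread, with an SD of 0.30. The lowest of them was 0.14 above the highest KO array, and probe sets of like signal had a median difference of -0.14. The difference of -0.59 (SE 0.15; limma, adjusted p = 0.0518) was as large as those of Cd63 and Cd151 but had a larger error. It passed in 7 of 16 other settings, among them the fit without WT array 3 (-0.75; limma, adjusted p = 0.0165), and the smallest difference was -0.41 after quantile normalization without KO array 2 (limma, adjusted p = 0.216). By adjusted p, Cd63 at 0.041 and Tspan6 at 0.0518 were the members on either side of the threshold.

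The other members above the median signal did not pass. Tspan13, a member expressed in many tissues, read 10.96, 10.66 and 10.81 in WT and 11.06, 10.86 and 11.06 in KO, a difference of 0.19 (95% interval -0.06 to 0.43; limma, adjusted p = 0.309). Its groups overlapped. Tspan31, first described as a gene amplified in sarcomas, read 7.54, 7.47 and 7.45 in WT and 7.66, 7.61 and 7.66 in KO. These groups did not overlap, but the difference was small at 0.16 (95% interval -0.04 to 0.35; limma, adjusted p = 0.283). Probe sets of like signal had a median of -0.17. Tspan3, a widely expressed tetraspanin, read 9.70, 9.43 and 9.55 in WT and 9.56, 9.32 and 9.45 in KO, with overlapping groups and a difference of -0.12 (95% interval -0.36 to 0.12). Tspan11, just above the median at the 51.6th percentile of signal, read 5.63, 5.67 and 5.83 in WT and 6.11, 6.13 and 5.87 in KO. Its groups were 0.03 apart, and its difference of 0.32 did not pass (SE 0.11; limma, adjusted p = 0.104).

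Apart from Cd63, none of the dim members passed, a share of 7.69% against 2.52% of all probe sets at or under the median signal. Of the 13 members at or under the median signal, 8 had positive and 5 negative differences. Their median was 0.18, against 0.10 for all probe sets at or under the median, and their median absolute difference was 0.26 against 0.13. Among them were members known from epithelia and other tissues outside the thymus. Upk1a and Upk1b, which build the plaques of the bladder lining, differed by 0.27 and 0.26, and Tspan8 and Tspan1, of gut and other epithelia, by -0.05 and -0.03. Tspan12, a coreceptor in Norrin signalling of the retina, differed by 0.18, Tspan18 by 0.11 and Tspan9 by -0.06. Tspan4 had the widest spread of the family, 5.51, 5.39 and 5.79 in WT and 6.15, 6.29 and 5.52 in KO, with a difference of 0.42 (SE 0.19; limma, adjusted p = 0.202). KO array 3 fell inside its WT range. The sign was not fixed for 4 members with small differences: Tspan32 changed sign in 5 of 16 other settings and Tspan1, Tspan9 and Tspan18 in 2 of 15 each.

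**Figure D3:**
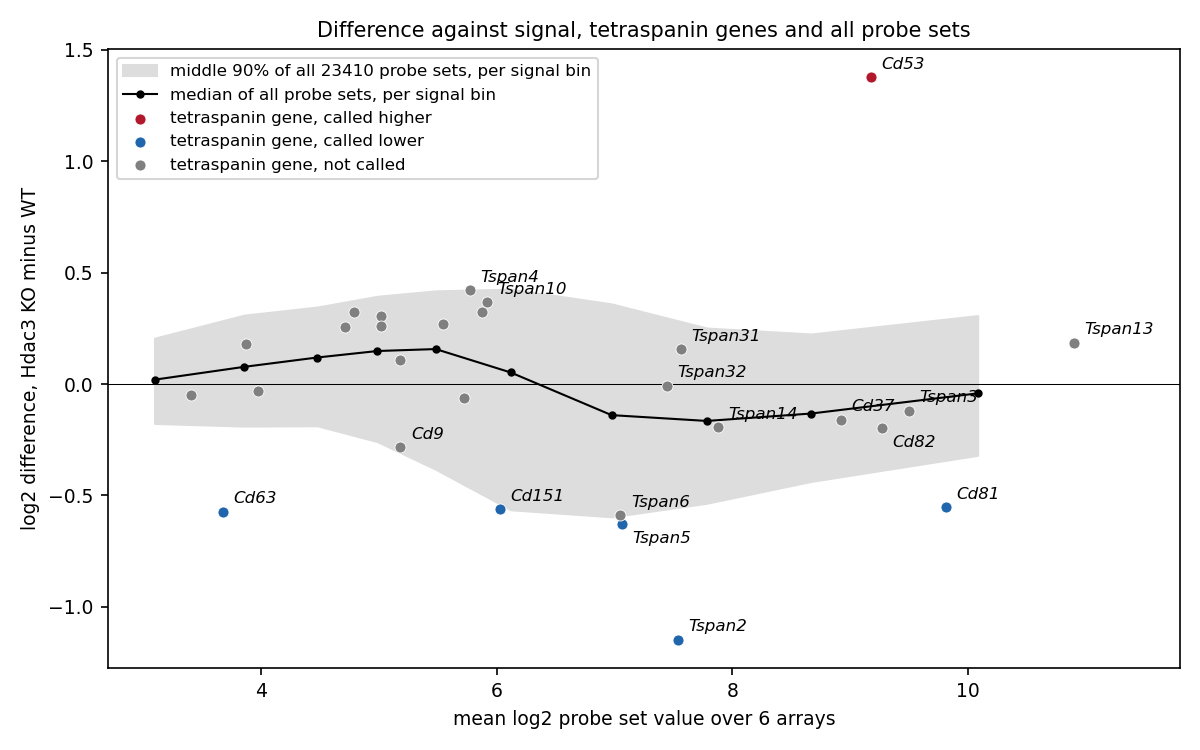
Log2 difference between Hdac3 KO and WT (y axis) against mean log2 probe set value over 6 arrays (x axis) for the 28 tetraspanin genes, over the median and the middle 90% of all 23410 tested probe sets in 10 signal bins. Cd53 lies far above and Tspan2, Cd81 and Cd63 far below the band. Tspan5 is just below its lower edge, Tspan6, Cd151 and Cd9 are near that edge and Tspan4 is at the upper edge.

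Several members lie next to each other in the genome. In the RefSeq annotation no protein-coding gene separates Tspan32 from Cd81, Tspan18 from Cd82 or Tspan11 from Tspan9, and 1, Polr2l, separates Cd151 from Tspan4. Differences within these pairs were -0.01 for Tspan32 and -0.55 for Cd81, 0.11 for Tspan18 and -0.20 for Cd82, 0.32 for Tspan11 and -0.06 for Tspan9, and -0.56 for Cd151 and 0.42 for Tspan4. Of these 8 genes Cd81 and Cd151 passed and 6 did not, where 5.79% of all probe sets passed. Differences between neighbours were not tested. Cd53, Tspan2 and Tspan5 share chromosome 3 without being neighbours.

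Partner proteins of tetraspanins were examined with a list of 42 genes, 40 of them measured. Of these 1 was higher, 7 were lower and 32 did not pass, and the median difference was 0.01. That is 20.0% of the list, against 5.79% of all probe sets. Of the 40 partners 27 were above the median signal, and 9.06% of all probe sets above it passed. The list was chosen with earlier results of these data known, so its share is not independent evidence. The genes that fell were Itga6, Il7r, Igsf3, Itgb1, Cd44, Cd2 and Epcam, and the one that rose was Icam1.

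Among integrin partners both chains of a laminin receptor fell. Itga6 and Itgb1 encode the chains of the laminin receptor that CD151 binds. Itga6 read 8.66, 8.32 and 8.17 in WT and 7.16, 6.84 and 7.12 in KO, and Itga6 fell by 1.34 (SE 0.14; limma, adjusted p = 0.0015). Itgb1 read 9.54, 9.52 and 9.55 in WT and 8.90, 8.76 and 8.94 in KO, and Itgb1 fell by 0.67 (SE 0.09; limma, adjusted p = 0.00405). Neither gene had overlapping groups, and both were called in all 16 other settings. Itga4, a further partner chain of Itgb1, differed by -0.49 (95% interval -0.82 to -0.16; limma, adjusted p = 0.0824) and Itga3 by -0.03. The chains of LFA-1, Itgal and Itgb2, had positive differences of 0.35 and 0.35 that did not pass (limma, adjusted p = 0.0627 and 0.0721), while Icam1, the ligand of LFA-1, rose by 0.62 (SE 0.12; limma, adjusted p = 0.0191). Icam1 was called in 11 of 16 other settings and was lost when WT array 1, WT array 2, KO array 2 or KO array 3 was dropped (0.52 to 0.72 over the 6 such fits; limma, adjusted p up to 0.0834).

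Among immunoglobulin superfamily partners, Igsf8 and Ptgfrn, the direct partners of CD9 and CD81, differed by 0.07 and 0.02 and did not pass. Igsf3, a relative of both, read 6.95, 6.54 and 6.90 in WT and 6.14, 5.92 and 6.09 in KO, and Igsf3 fell by 0.75 (SE 0.13; limma, adjusted p = 0.0107). Cd2, a T cell adhesion receptor that binds CD53, fell by 0.49 (SE 0.09; limma, adjusted p = 0.0193) and kept its call in 2 of the 6 fits that dropped an array (-0.53 to -0.43; limma, adjusted p up to 0.0758). The coreceptor genes Cd4, Cd8a and Cd8b1, which associate with CD81 and CD82, differed by -0.00, -0.04 and 0.01. Cd44, an adhesion receptor of tetraspanin microdomains, fell by 0.66 (SE 0.09; limma, adjusted p = 0.0034) and Il7r, the interleukin-7 receptor chain, fell by 1.19 (SE 0.17; limma, adjusted p = 0.0056). Both were dim, at the 28.5th and 37.2nd percentile of mean signal. Epcam, dim too at the 37.1st percentile, fell by 0.37 (SE 0.09; limma, adjusted p = 0.0438) and was called in 5 of 15 other settings. Its call was lost in every fit without 1 array (limma, adjusted p from 0.0581 to 0.134), with the replicate number as a block (limma, adjusted p = 0.0665), with all probe sets tested (limma, adjusted p = 0.0524), with an intensity trend (limma, adjusted p = 0.0677) and after quantile normalization without KO array 2 (limma, adjusted p = 0.0683).

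Partners inside the cell did not pass. Zdhhc2, which attaches palmitate to tetraspanins, read 5.18, 5.34 and 4.79 in WT and 4.35, 4.78 and 4.38 in KO, a difference of -0.60 (95% interval -0.96 to -0.24; limma, adjusted p = 0.0609). Only KO array 2 and WT array 3 came close to each other, 0.01 apart. Sdcbp, the adaptor syntenin that binds CD63, differed by -0.23 (95% interval -0.46 to -0.00; limma, adjusted p = 0.192), and the lipid kinase gene Pi4k2b by -0.45 (95% interval -0.85 to -0.05; limma, adjusted p = 0.157).

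**Figure D4:**
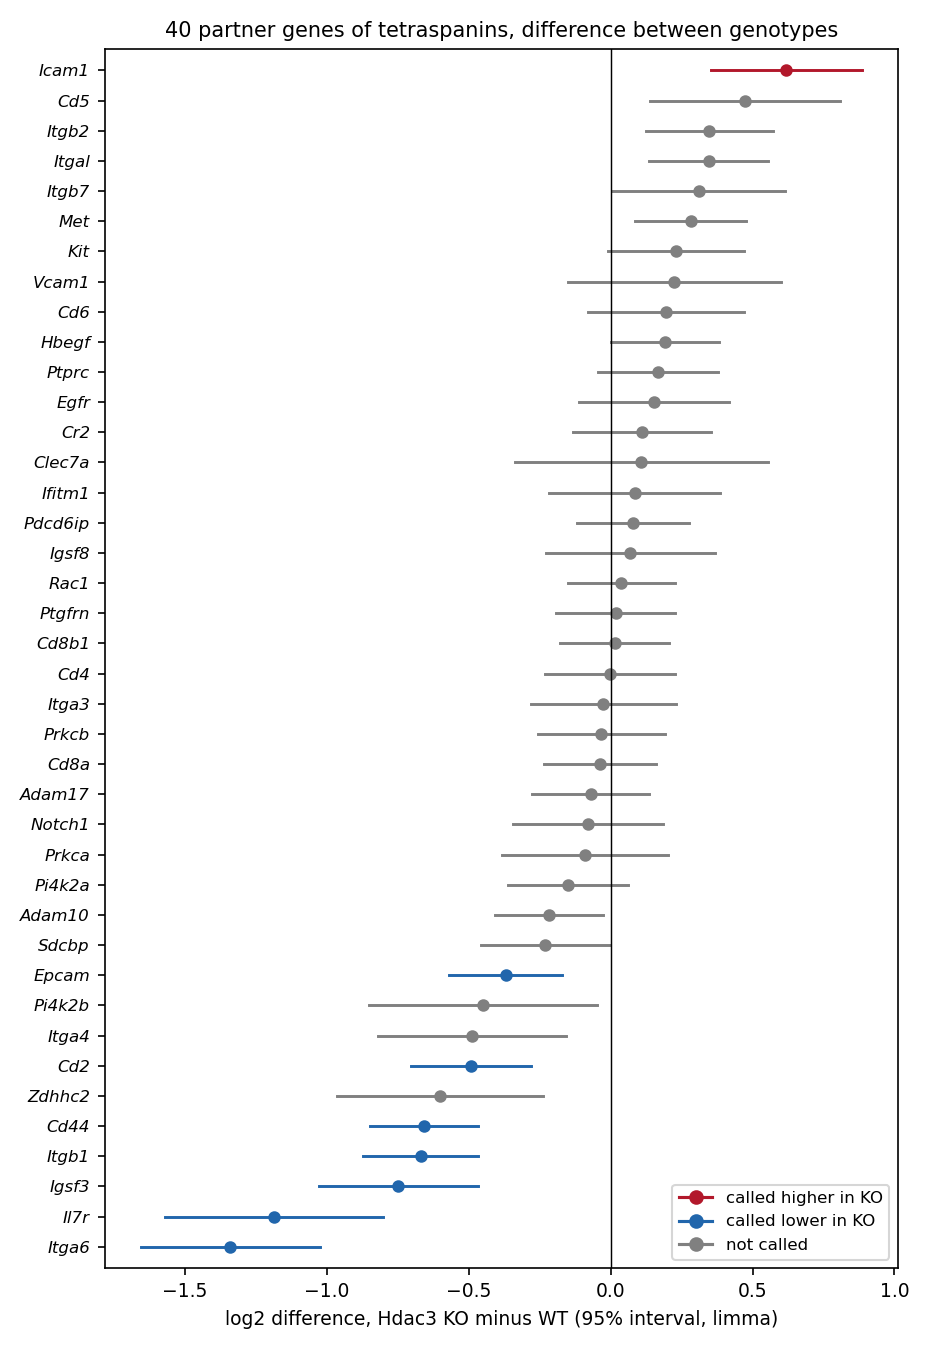
Log2 difference between Hdac3 KO and WT (x axis) for 40 partner genes of tetraspanins (y axis, in order of the difference), with the 95% interval of the limma fit over 3 WT and 3 KO arrays. Itga6 and Il7r lie farthest to the left at -1.34 and -1.19, and Icam1 is the one gene called higher, at 0.62.

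Because several tetraspanins are abundant on other blood and stromal cells, marker genes of such cells were read beside the members. All 13 neutrophil markers were highest on KO array 2, S100a8 at 7.12 there and 4.36 to 5.02 elsewhere. Cd53 on KO array 2 was 9.95 and on KO array 3 9.94, and its difference without KO array 2 is given above. The part of neutrophils in the Cd53 difference was not tested. The summed signals of the other marker lists overlapped between genotypes on the log2 scale, apart from the dendritic, thymic epithelial and double-negative lists. For 9 B cell markers they were 8.33 to 8.58 in WT and 8.30 to 8.50 in KO, for 9 macrophage markers 8.15 to 8.32 and 8.27 to 8.65, for 7 platelet markers 8.23 to 8.59 and 8.34 to 8.69 and for 6 erythroid markers 7.37 to 7.67 and 7.64 to 7.86. Ranges were 9.44 to 9.61 and 9.51 to 9.64 for 10 fibroblast and endothelial markers. They did not overlap for 9 dendritic cell markers, 8.22 to 8.46 in WT and 8.48 to 8.55 in KO. Of these 0 passed and 1 was above the median signal. Their median difference was 0.14, against 0.10 for all probe sets at or under the median. Sums also did not overlap for 10 thymic epithelial markers, 9.07 to 9.29 in WT and 9.40 to 9.48 in KO. Among these Epcam fell, by 0.37 (limma, adjusted p = 0.0438), and 9 did not pass. Cldn4, the brightest of them, differed by 0.48 (limma, adjusted p = 0.106). The part of dendritic and epithelial cells in the differences above was not tested. Of the double-negative stage, 9 markers summed to 8.91 to 9.18 in WT and 9.41 to 9.66 in KO, again without overlap. Il2ra was called higher, at a difference of 2.28, Cd44 was called lower, at -0.66, and the other 7 did not pass. Because sums add unlogged signals, a large change in a single gene such as Il2ra can move them. The part of the double-negative stage in the differences was not tested either. For 8 markers of mature T cells the sums were 8.92 to 9.25 and 9.03 to 9.22, and for 9 DP markers 14.58 to 14.73 and 14.62 to 14.68. The array gives no true zero, so no marker can be said to be at 0.

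Tetraspanin-like proteins outside the symbol rule showed no call either way in the limma fit. The photoreceptor tetraspanins Prph2 and Rom1 differed by 0.09 and 0.02, and 5 genes of the unrelated TM4SF family of similar topology by -0.13 to 0.65, with 0 of these 7 genes past the adjusted threshold and 3 past an unadjusted p of 0.05.

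**Figure D5:**
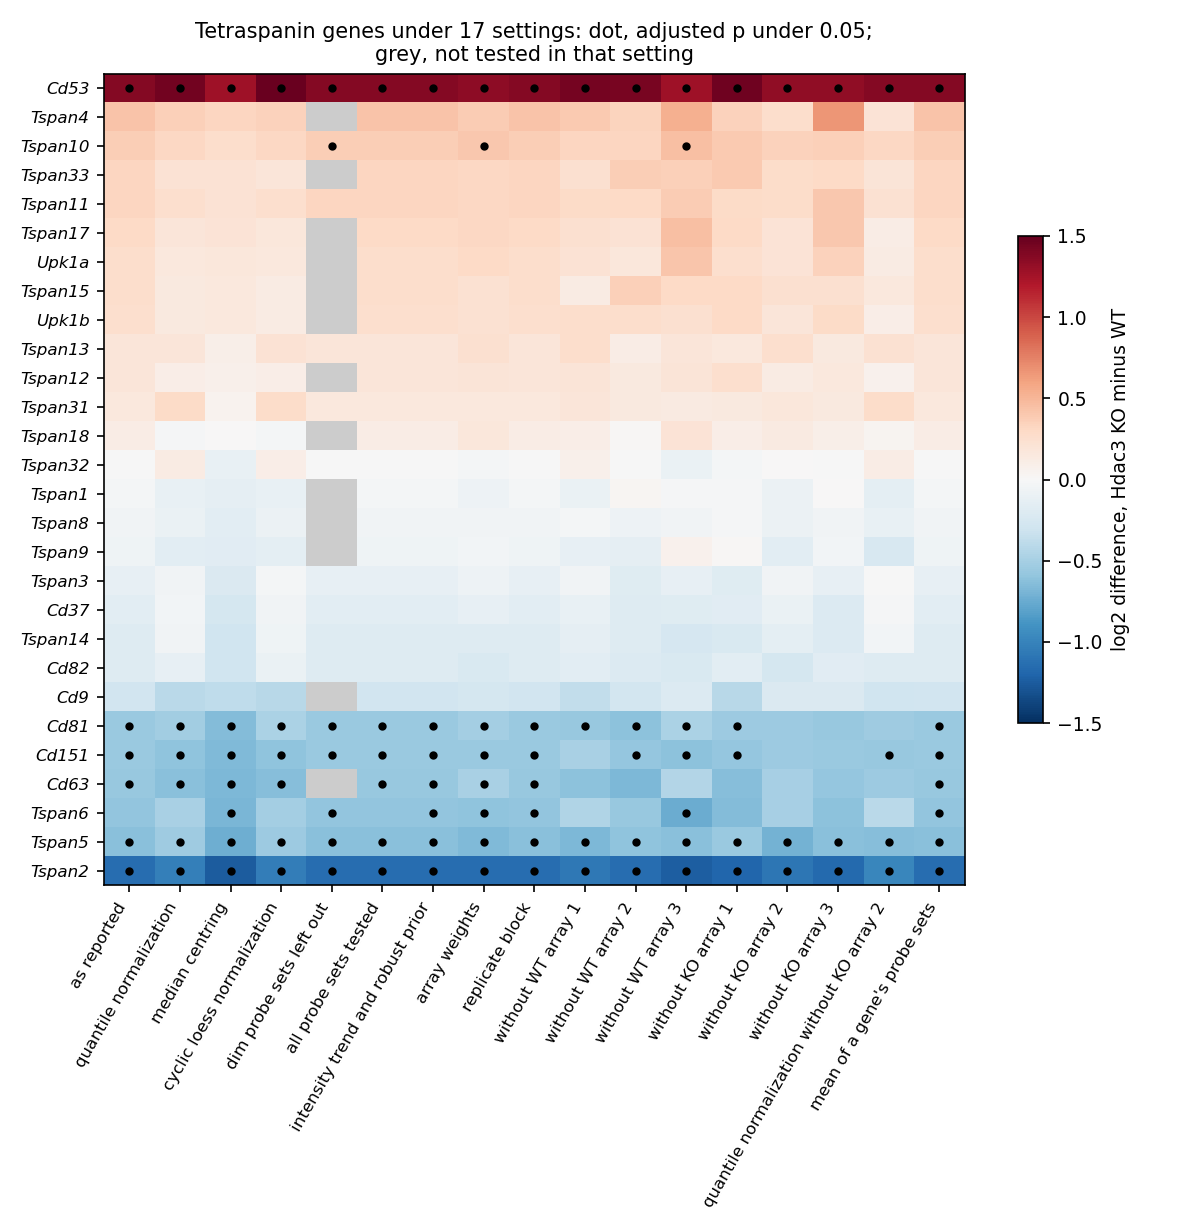
Log2 difference between Hdac3 KO and WT (colour) of the 28 tetraspanin genes (rows) under the reported fit and 16 other settings (columns), with a dot where the limma adjusted p was under 0.05 and grey where a gene was not tested. Cd53, Tspan2 and Tspan5 carry a dot in all 17 columns, while Cd63 has none in the 6 columns that leave out 1 array.

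The calls differed in how they stood up to the choice of arrays. Cd53, Tspan2 and Tspan5 were called in all 6 fits that left out 1 array, Cd81 in 4, Cd151 in 3 and Cd63 in 0 of them, and Tspan6 and Tspan10 in 1 each. The direction of all 6 called members was the same in every setting run, though some settings cannot move a difference, as given below. The count of members lower in KO was 5 in the fit of all arrays. It fell to 2 without KO array 2 or KO array 3 and to 3 without WT array 1. Over all probe sets calls fell from 1355 to 474, 489 and 517 in these fits, and rose to 1946 without WT array 3.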

How the data were processed

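Expression was measured on 6 arrays, 3 WT and 3 Hdac3 KO, grouped by sample title. The values are the authors' deposited log2 probe set values, 1 per array, read as log2 from their range (1.94 to 13.98). How the authors corrected background, normalized and summarized probes is not stated in the labels. Probe sets were named through the platform annotation, and all 28 members matched RefSeq (GRCm38.p6) by Entrez identifier. The number of arrays limits the precision, and the median SE of a member's difference was 0.11.

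The 23410 probe sets with a gene were fitted with limma 3.58.1 (lmFit, eBayes, R 4.3.3), KO minus WT, two-sided, with Benjamini-Hochberg adjustment over all of them and a threshold of 0.05. An exact test of 3 against 3 arrays cannot go below p = 0.1, so none was run. Values on every array are given for members that were called, differed by at least 0.5 or had a mean above the median of tested probe sets (5.77). A list's sum adds unlogged signals. Members, lists, motifs and alternatives were chosen with earlier results of these data known. Alternatives were quantile, median and cyclic loess scaling, a filter on dim probe sets, all probe sets, a block on the replicate number, an intensity trend with a robust prior, weights per array, each array left out, and gene means.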

Additional observations from a re-analysis of the deposited data

How the results depend on the processing

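No called member or partner changed direction in any setting. The filter on dim probe sets, all probe sets tested, the intensity trend and the replicate block left each difference unchanged. Only the adjusted p could move there. Gene means likewise left the differences of members unchanged, since each had a single probe set. Members called higher numbered 1, and 2 with dim probe sets left out or with array weights. Members called lower numbered 5 and were 5 or 6 in every setting with all arrays. With 1 array left out they ranged from 2 (without KO array 2 or 3) to 5, those higher from 1 to 2, and quantile normalization without KO array 2 gave 3 lower. The members' median of -0.02 was -0.12 after median centring and -0.16 with dim probe sets left out, which keeps 15 members. Leaving out 1 array gave -0.03 to 0.02.

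Partners called higher (1) were 2 after cyclic loess, 3 with an intensity trend, with array weights or with dim probe sets left out, 0 after quantile normalization without KO array 2 (limma; 5 partners higher at unadjusted p under 0.05), and 0 to 1 with 1 array left out (limma; 5 to 7 higher at unadjusted p under 0.05). Partners called lower (7) were 4 with dim probe sets left out, which keeps 27 partners, 4 after quantile normalization without KO array 2, and 5 to 8 with 1 array left out.

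Over all probe sets 409 were higher and 946 lower. There were 608 lower after quantile normalization, 197 higher and 1863 lower after median centring, 778 and 1507 with array weights, and 149 and 288 after quantile normalization without KO array 2. Leaving out 1 array gave 114 to 651 higher and 345 to 1295 lower. Higher calls were 30.2% of all calls and 9.56% after median centring, which moved the median of all probe sets from 0.02 to -0.08.

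Nothing in the sources says that the replicate numbers pair the arrays. Deviations of same-numbered arrays correlated at 0.25, -0.07 and -0.03, and those of other pairs at -0.34 to 0.32. With 3 arrays per group these values cannot settle whether arrays were paired. With the replicate block there were 1 higher and 6 lower members, Tspan6 being the addition (limma, adjusted p = 0.0443), and 344 higher and 818 lower probe sets in all. Dim members such as Cd63 are limited by an unknown background.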
